A study of Mus musculus with 3264 samples.

Results

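The 10 genes described here encode 5 cytokine receptor chains (Il2ra, Il2rb, Il2rg, Il7r and Il4ra), the kinase Jak3 and 4 members of the SOCS family (Socs1, Socs2, Socs3 and Cish). They were chosen by name, with earlier results of these data known. All 10 are rows of both deposited tables, which hold 24781 genes for the cell lines and 25051 for blood. RNA was counted well by well, with 1 mouse cell intended per well and primers that carry a molecular barcode. The cell lines were a hematopoietic progenitor cell (HPC) line, a T cell line and a leukemia line, mixed before isolation, and the blood cells were mononuclear cells of peripheral blood (PBMC) from C57BL/6J mice. No name, strain, genotype, treatment or culture condition of the lines, and no age or number of the mice, is given in the sources used here. Wells were filled by ALPS, an instrument that images and picks single cells, after time-lapse imaging of the mixture (16 plates with a mean of 63 wells per plate in the table), at random (4 plates with a mean of 82.5), or by cell type (4 plates with means of 18.25 HPC, 30 T and 31.5 leukemia wells, called target wells here). A further 2 plates were filled by fluorescence-activated cell sorting (FACS, a mean of 89.5 wells), and 8 plates held PBMC taken after time-lapse imaging (a mean of 43.25 wells per plate, 42.375 of them with at least 300 detected genes). Since each sample is 1 cell and no animal or culture is named, each group counts as 1 sample. No test between groups was run, and the plates give the spread.

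Cytokines such as interleukins 2, 4, 7 and 15 signal through receptors that share the common gamma chain, the product of Il2rg. The gamma chain binds Jak3, the partner chain binds Jak1, and the kinases activate STAT proteins, Stat5 among them, which enter the nucleus and switch on target genes. Cish and the Socs genes are themselves targets of STAT proteins, and their products dampen the signal at the receptor or the kinase, so that their RNA is widely read as a sign of recent cytokine signalling in blood cells. Il7r is known for keeping naive T cells and lymphoid progenitors alive, and Socs2 restrains growth hormone signalling and is expressed in blood stem and progenitor cells.

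Promoter sequences are shown for 4 members because they differ in the letters that STAT proteins are known to bind. The motif searched was TTCNNNGAA, which reads the same on both strands, in a window from 250 bases before to 50 bases after the gene start that the RefSeq promoter table (GRCm38.p6) gives. Windows were matched by symbol for 8 of the 10 members, all but Il2rb and Socs2. For Il7r and Socs3 the start used, at 9529876 and 117969366, lies inside the gene's full annotated span, which on this strand begins at 9529941 and 117970336, so that other annotated starts of these genes were not searched. Each line runs 5′ to 3′ on the gene's strand from 160 bases before the start to 20 bases after it, with every motif in capitals.
Cish, chr9:107296499-107296678 (+): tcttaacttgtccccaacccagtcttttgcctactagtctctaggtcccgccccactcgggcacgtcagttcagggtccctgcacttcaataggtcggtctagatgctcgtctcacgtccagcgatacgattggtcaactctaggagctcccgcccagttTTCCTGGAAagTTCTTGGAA
Il7r, chr15:9529857-9530036 (-): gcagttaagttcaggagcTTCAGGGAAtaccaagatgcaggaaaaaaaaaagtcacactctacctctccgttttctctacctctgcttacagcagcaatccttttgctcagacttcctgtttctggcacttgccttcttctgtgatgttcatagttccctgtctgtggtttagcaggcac
Socs3, chr11:117969347-117969526 (-): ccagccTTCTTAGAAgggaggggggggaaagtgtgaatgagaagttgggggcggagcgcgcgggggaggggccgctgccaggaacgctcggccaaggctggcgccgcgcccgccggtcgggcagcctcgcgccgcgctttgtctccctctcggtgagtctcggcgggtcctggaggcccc
Socs1, chr16:10785517-10785696 (-): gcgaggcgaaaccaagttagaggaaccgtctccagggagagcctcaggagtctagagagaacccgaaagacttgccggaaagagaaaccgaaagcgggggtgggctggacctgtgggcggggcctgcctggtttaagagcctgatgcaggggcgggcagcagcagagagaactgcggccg

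The Cish window held 2 copies of the motif, TTCCTGGAA at the annotated start and TTCTTGGAA 11 bases further on. The Il7r window held TTCAGGGAA and the Socs3 window TTCTTAGAA, 1 copy each. No copy lay in the windows of Socs1, Il2ra, Il2rg, Il4ra or Jak3, which says only that these letters are not in these bases. Of 32851 windows of all RefSeq gene starts, 2726 (8.30%) held the motif and 150 (0.457%) held 2 or more. Cish, which lies on chromosome 9 at 107296659 to 107302784, is the only member of the 8 with 2 copies. In the same annotation Il7r lies on chromosome 15 at 9506159 to 9529941, Il4ra on chromosome 7 at 125552271 to 125579474, Il2rg on chromosome X at 101264385 to 101268255, Socs1 on chromosome 16 at 10783808 to 10785536 and Socs2 on chromosome 10 at 95383903 to 95417321.

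The 3 lines were first compared on the target plates, each of which holds wells of all 3 lines. Median expected counts per well were 34189 in HPC, 37148 in T and 31868 in leukemia wells. Levels below are counts of a gene over the wells of a line, scaled to a sum of 1000000 over all genes (CPM), and a difference is in log2 (CPM + 1) within a plate, averaged over the 4 plates. A gene was called higher or lower when the mean difference was at least 1 (2-fold), the direction was the same on all 4 plates, and 1 of the groups reached 10 CPM and 30 counts. The labels were checked against marker genes. The 14 listed T cell markers in the table summed to 2351 CPM in T wells and to 1339.98 CPM in leukemia wells. Cd5 and Cd247 were at 0 in both lines, and Cd4 and Cd8a in leukemia wells. The 11 progenitor markers summed to 2418 CPM in HPC wells, with Gata2 at 0, and HPC wells also carried monocyte and macrophage markers at 984.8 CPM. Of the 73 HPC wells, 3 on plate 4 had profiles closest to another line (2 leukemia, 1 T), and results are given with them unless stated.

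The 3 lines differed in these genes. Socs2, Il4ra and Cish were called higher in HPC wells than in both other lines, Il4ra was nearly absent from T wells, and Socs1 was called lower in HPC and T wells than in leukemia wells. Il2rg was called lower in HPC than in T wells. Against leukemia wells, 4 of the 6 members tested were higher in HPC wells and 1 was lower, beside 12.6% and 13% of the 8123 genes tested. Against T wells, 3 of 5 members were higher in HPC wells and 1 was lower, beside 12.7% and 15.6% of 8308 genes. Between T and leukemia wells, 0 of 4 members were called higher and 2 lower, beside 14.8% and 12.2% of 8273 genes. The members were chosen with earlier results of these data known, so these counts do not measure enrichment. Over all 10 members, tested or not, the median difference was 1.34 (HPC against leukemia), 1.25 (HPC against T) and 0.06 (T against leukemia). The medians over all genes tested, a set that leaves out genes under the minimum, were -0.13, -0.14 and 0.01. The 4 members tested in T against leukemia wells had 0.95 (Il2rg), -4.26 (Il4ra), 0.58 (Jak3) and -1.63 (Socs1).

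**Figure D1:**
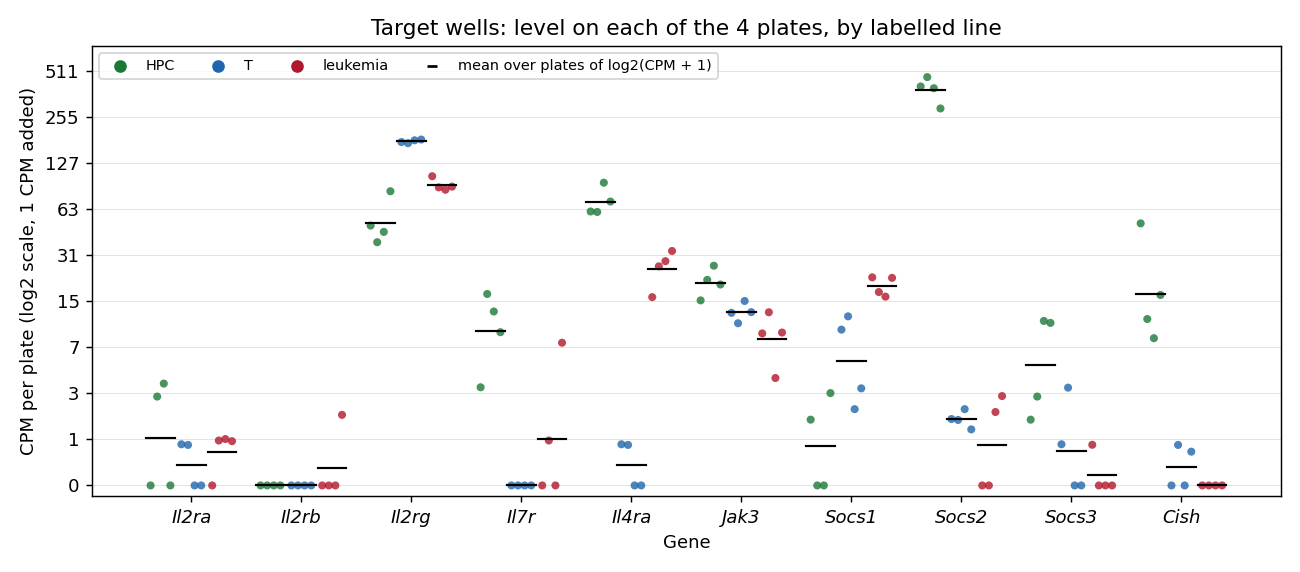
Levels of the 10 genes on the 4 target plates, in CPM on a log axis after adding 1, for HPC, T and leukemia wells. Each point is 1 plate and the bar is the mean over plates. Socs2 sits between 291.4 and 468.04 CPM in HPC wells and under 3 CPM on every plate of the other lines.

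Il2rg, the shared chain, was present in all 3 lines. On plates 1 to 4 it had 49.1, 38.01, 44.6 and 83.04 CPM in HPC wells, 175.3, 172.4, 180.1 and 182.1 CPM in T wells, and 104.4, 88.1, 84.9 and 89.1 CPM in leukemia wells. The T wells lay above both other lines on every plate, and HPC wells lay below leukemia wells on every plate, narrowly on plate 4 (70.01 CPM in HPC wells without the 3 wells of another profile). Il2rg was 3.29-fold lower in HPC than in T wells (interval 2.73 to 3.96, difference -1.77, plates -2.15 to -1.12). Intervals here and below are exact 95% intervals that cover counting error only. The difference between T and leukemia wells, 0.95, stayed under the 2-fold limit (it reached 1.02 without plate 1), and that between HPC and leukemia wells was -0.82 (-1.06 without plate 4). A count was seen in 54 of 73 HPC wells, 99.2% of T and 92.1% of leukemia wells.

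Il4ra, the chain that binds interleukin-4, ran the other way between HPC and T cells. It had 60.96, 60.5, 94.6 and 70.96 CPM in HPC wells, 0.859, 0.841, 0 and 0 CPM in T wells, and 16.1, 26.1, 28.3 and 33.2 CPM in leukemia wells. The 3 lines did not overlap on any plate. HPC wells were 170-fold above T wells (46.3 to 1410.9) and 2.77-fold above leukemia wells (2.17 to 3.55), and T wells were 61.2-fold below leukemia wells (16.6 to 512.1). A count of Il4ra was found in 59 of 73 HPC wells, 2 of 120 T wells and 49.2% of leukemia wells.

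Il7r, the interleukin-7 receptor chain, was low and confined mostly to HPC wells on these plates. It had 3.39, 16.9, 12.7 and 9.06 CPM in HPC wells, 0 CPM on all 4 plates of T wells, and 0, 0.968, 0 and 7.58 CPM in leukemia wells. Counts came from 14 of 73 HPC wells and 2 leukemia wells, and from 0 of 120 T wells, where 3 counts in the group would be a share of 2.50% of wells with a count. HPC wells were at least 17.1-fold above T wells, but with 27 counts the gene missed the minimum for a call. Il2ra and Il2rb, which complete the interleukin-2 receptor, were close to absent. Il2ra had counts in 3 HPC, 2 T and 3 leukemia wells, and Il2rb in 1 leukemia well and no other target well.

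Jak3 differed less. It had 15.2, 21.1, 26.4 and 19.6 CPM in HPC wells, 12.5, 10.51, 15.1 and 12.6 CPM in T wells, and 8.87, 12.6, 4.05 and 9.004 CPM in leukemia wells. HPC wells lay above both other lines on every plate, and T wells above leukemia wells on 3 of 4 plates. Jak3 was 2.36-fold higher in HPC than in leukemia wells (1.53 to 3.74, difference 1.23), a call that was lost without plate 3 (0.82), with 10 CPM added before the log (0.72) and in FACS wells by class (0.99). Against T wells the difference was 0.64. Jak3 values are uncertain, because Insl3 lies within the annotated span of Jak3 and 54.4% of the cell line wells with a Jak3 count held a fractional value, 99.8% of them with a fractional Insl3 value as well.

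The SOCS genes split the lines. Socs2 had 406.4, 468.04, 395.6 and 291.4 CPM in HPC wells, 1.72, 1.68, 2.16 and 1.33 CPM in T wells, and 0, 0, 2.02 and 2.84 CPM in leukemia wells. HPC wells were far above both other lines on every plate, and plate 4 read 363.3 CPM without the 3 wells of another profile. The ratio was 234.1 over T wells (118.3 to 543.7) and 333.3 over leukemia wells (142.3 to 1028.8). Socs2 was counted in 67 of 73 HPC and 7 of 120 T wells, and in 3.97% of leukemia wells.

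Cish, the family member named for cytokine induction, was found nearly only in HPC wells, and unevenly among plates. It had 50.8, 11.3, 8.19 and 16.6 CPM in HPC wells, 0, 0.841, 0 and 0.664 CPM in T wells, and 0 CPM on all plates of leukemia wells. Plate 1 stood apart within the HPC wells, with 11 of its 17 wells positive against 22 of 73 over all 4 plates. HPC wells were 50.96-fold above T wells (13.6 to 435.6) and at least 30.2-fold above leukemia wells, with the 0 counts set to a floor of 3 over the group. Without plate 1 the differences were 3.11 over T and 3.65 over leukemia wells, but under 30 counts remained and the calls were lost.

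Socs1, an inhibitor of the JAK kinases themselves, had 1.69, 0, 0 and 3.02 CPM in HPC wells, 9.45, 11.8, 2.16 and 3.32 CPM in T wells, and 21.97, 17.4, 16.2 and 21.8 CPM in leukemia wells. Leukemia wells were the highest on each plate. Socs1 was 16.3-fold lower in HPC than in leukemia wells (5.39 to 80.7) and 2.91-fold lower in T than in leukemia wells (1.92 to 4.53). The first call was lost in FACS wells by class (difference -0.90, against -3.48 on the target plates) and the second with 10 CPM added before the log (-0.85, against -1.63). Counts came from 3 of 73 HPC and 27 of 120 T wells, and from 35.7% of leukemia wells. Socs3, which binds receptors of the interleukin-6 family, had 1.69, 2.82, 10.9 and 10.6 CPM in HPC wells and at most 3.36 and 0.845 CPM on any plate of T and leukemia wells. With 9 positive HPC wells it stayed below the minimum for a call.

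Other genes of the pathway were counted by the same rule from lists of fixed membership. These lists too were chosen with earlier results of these data known, so counts from them here and below do not measure enrichment. Beside these counts stand the shares of all genes tested that were called higher and lower. They were 12.6% and 13% for HPC against leukemia, 12.7% and 15.6% for HPC against T, and 14.8% and 12.2% for T against leukemia wells. Of 28 other cytokine receptors, 12 could be tested between HPC and leukemia wells, 7 of them higher and 1 lower (median difference 1.27), and 7 of 11 were higher in HPC than in T wells (median 1.46). Flt3, a receptor of early progenitors, had 124.1 CPM in HPC wells and 0 in both other lines. Csf2rb, the shared chain of the interleukin-3 and GM-CSF receptors, had 36.01 CPM in HPC, 0.627 CPM in T and 0.469 CPM in leukemia wells. Between T and leukemia wells 0 of 9 receptors were higher and 3 lower, Il18r1 and Ifngr1 among them (median -0.41).

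Among 11 other genes of the gamma chain family, 3 could be tested in each comparison. Il9r, the interleukin-9 receptor, had 1.59 CPM in HPC, 25.5 CPM in T and 27.6 CPM in leukemia wells and was called lower in HPC wells against both. Il21r had 26.3, 0.209 and 14.1 CPM in HPC, T and leukemia wells, was higher in HPC wells against both and lower in T than in leukemia wells. Crlf2, the receptor chain for TSLP that pairs with Il7r, had 23.5 CPM in HPC and 14.4 CPM in T wells and 0 in leukemia wells, and was called higher than in leukemia wells in both.

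Of the 10 JAK and STAT genes, 2 of 9 tested were higher and 2 lower in HPC than in T wells (median -0.33), 1 and 1 of 9 against leukemia wells (median 0.47), and 3 and 0 of 8 in T against leukemia wells (median 0.79). In the same order, 12.7% and 15.6%, 12.6% and 13%, and 14.8% and 12.2% of all genes tested were higher and lower. Stat5a, a main messenger of these receptors, had 20.7 CPM in HPC, 7.31 CPM in T and 6.34 CPM in leukemia wells and was called higher in HPC wells against both. Stat4, which acts downstream of interleukin-12, was called lower in HPC wells (1.99 CPM) than in T (24.02 CPM) and leukemia wells (11.5 CPM). Jak1, the partner kinase of Jak3, had 91.7 CPM in HPC and 280 CPM in T wells, a difference of -1.66.

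Among 16 other negative regulators in the table, 2 of 14 were higher and 2 lower in HPC than in T wells (median 0.01), near the 12.7% and 15.6% of all genes tested. Against leukemia wells 1 of 13 was higher and 2 were lower in HPC wells (median -0.18), beside 12.6% and 13%. In T against leukemia wells 0 of 13 were higher and 1 lower (median -0.32), beside 14.8% and 12.2%. Ptpn6, the phosphatase SHP-1 of blood cells, stood at 198.6 CPM in HPC, 2.51 CPM in T and 2.58 CPM in leukemia wells. Of 17 genes known as Stat5 targets, 4 of 11 were higher and 2 lower in HPC than in T wells (median -0.67), 2 of 11 higher and 5 lower than in leukemia wells (median -0.68), and 1 of 12 higher and 5 lower in T than in leukemia wells (median -0.44). The same shares of all genes tested stand beside these counts. Bcl2, a survival gene, had 165.9 CPM in HPC, 8.91 CPM in T and 13.4 CPM in leukemia wells. Its relative Bcl2l1 had 27.5, 20.7 and 220 CPM in the same order. The kinase gene Pim1 had 87.7 CPM in HPC, 7.99 CPM in T and 23.9 CPM in leukemia wells, and its calls were higher in HPC against both and lower in T against leukemia wells.

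For the 3 members that reached 50 CPM in a line, the genes of most similar level over the 12 plate and line profiles were sought among 4770 candidates. Il2rg was most like Bmp7 (Pearson r = 0.983), Rab28 (0.978) and Bcl11b (0.975). Il4ra was most like Retreg1 (0.991), Nme4 (0.986) and H2afj (0.985). Socs2 was most like Hbb-bt and Hbb-b2 (both 0.988, with the same CPM in each line, as 2 genes that share counts) and Ybx3 (0.987). The profiles of a line share their line, so these values describe a pattern over 3 lines.

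Time-lapse and random wells carry no line label, and each was given the class of the line whose mean target profile it correlated with best over 8823 genes, with the members and the listed pathway genes left out. This put 25.99% of time-lapse wells in the HPC, 31.4% in the T and 42.6% in the leukemia class (means of 16.375, 19.8125 and 26.8125 wells per plate), and 33.6%, 36.1% and 30.3% of random wells (27.75, 29.75 and 25 wells per plate). Here the difference is between means over plates, and a call needs at least 85% of the 16 time-lapse plates to lie beyond all 4 random plates. The 2 kinds of wells never share a plate, so time-lapse imaging and plate cannot be told apart. The ribosomal RNA gene Rn45s took 13.9% of counts in time-lapse HPC wells and 9.95% in random HPC wells, 12.1% and 8.50% in T wells, and 13.7% and 9.55% in leukemia wells; its part in the results was not tested beyond scaling without it, which kept every count of called members. In clustering, time-lapse and random wells of a class fell mostly into separate clusters. The time-lapse T wells all fell into 1 cluster, which held 1 time-lapse well of the leukemia class besides and no labelled well.

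Of the members, 3 were called in HPC cells, and none of those tested was called in the other classes, where several low genes could not be tested. In time-lapse against random HPC wells, 1 of 6 members tested was higher, Il7r, and 2 were lower, Il4ra and Cish, beside 4.4% and 8.42% of 8335 genes. In the T class 0 of 3 were called in either direction, beside 9.39% higher and 10.2% lower of 8179 genes. In the leukemia class 0 of 3 were called, beside 0.906% and 1.05% of 7723 genes. Over all 10 members, tested or not, the median difference was -0.89 in HPC, 0.10 in T and 0.04 in leukemia wells. Over all genes tested, which leaves out genes under the minimum, it was -0.08, -0.02 and -0.11. The 3 members tested had -0.81 (Il2rg), -0.54 (Jak3) and 0.27 (Socs1) in T wells. In leukemia wells they had -0.39 (Il2rg), -0.88 (Il4ra) and -0.54 (Socs1). The difference between classes was not tested, and the choice of members with earlier results known limits these counts as well.

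**Figure D2:**
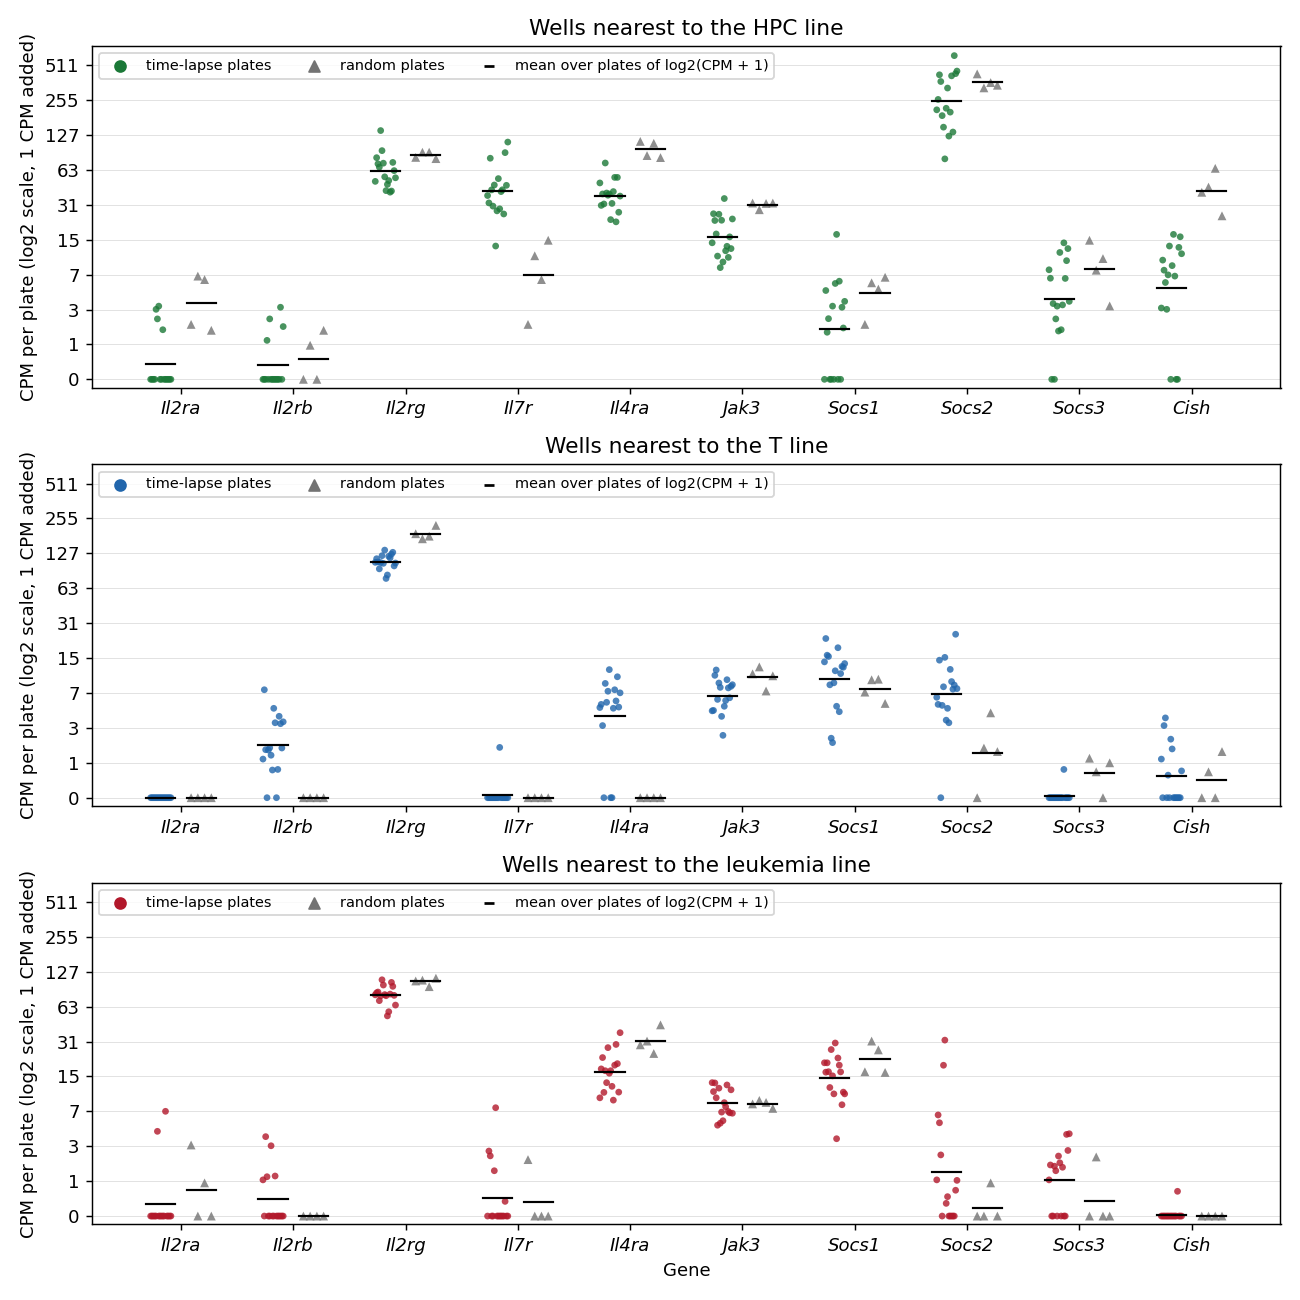
Levels of the 10 genes in time-lapse and random wells by class, in CPM on a log axis after adding 1. Each point is 1 plate with at least 5 wells of the class, and the bar is the mean over plates. In HPC wells Il7r is higher in time-lapse plates (13.1 to 110.2 CPM) than in random plates (1.98 to 14.8 CPM), while Cish is lower (0 to 16.8 CPM against 24.7 to 64.99 CPM).

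Il7r rose in time-lapse HPC wells. The 16 time-lapse plates read 13.1 CPM at the lowest, 41.3 at the median and 110.2 at the highest, and the random plates read 1.98, 10.6, 6.25 and 14.8 CPM. All but 1 of the time-lapse plates lay above all random plates. The pooled ratio was 5.88 (3.98 to 9.02), and the mean difference was 2.40. Il7r was counted in 49.6% of time-lapse wells (43.4 to 55.8) and in 17.1% of random wells (10.6 to 25.4). After thinning each well to 27000 counts, the shares were 46.4% and 14.5%. The wells themselves also reached higher counts: 22 time-lapse wells (8.40%) held 6 or more Il7r counts, and the highest random well held 4.

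Il4ra fell over the same wells. Time-lapse plates read 21.8 CPM at the lowest, 38.2 at the median and 72.4 at the highest, and random plates read 111.7, 84.1, 107.5 and 80.7 CPM. Every time-lapse plate lay below every random plate. The pooled level was 2.63-fold lower in time-lapse wells (2.25 to 3.06), with counts in 58.8% of time-lapse wells (52.6 to 64.8) and 81.1% of random wells (72.5 to 87.9). The target HPC wells, at 70.8 CPM, had plates at 60.5 (lowest), 65.96 (median) and 94.6 CPM (highest), with the 3 wells of another profile kept. All of these plates but the highest lay below every random plate and within the range of the time-lapse plates, without time-lapse imaging.

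Cish fell as well. Time-lapse plates read 0 CPM at the lowest (on 3 plates), 7.35 at the median and 16.8 at the highest, and random plates read 40.02, 44.4, 64.99 and 24.7 CPM. The groups of plates did not overlap, and the pooled level was 6.18-fold lower in time-lapse wells (4.61 to 8.42). A count was held by 16.4% of time-lapse wells (12.1 to 21.5) and 41.4% of random wells (32.2 to 51.2), and after thinning the shares were 14.5% and 31.9%. The target HPC wells, at 21.3 CPM, lay between the pooled levels of time-lapse wells (7.19 CPM) and random wells (44.4 CPM). Their plate 1 read 50.8 CPM, while plates 2 to 4 read 11.3, 8.19 and 16.6 CPM. Plates 2 to 4 thus lay below every random plate and within the range of the time-lapse plates, without time-lapse imaging. Without the 3 wells of another profile plate 4 read 20.8 CPM, above that range and below every random plate.

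The other members of the HPC class did not meet the rule. Jak3 had 17.5 CPM in time-lapse and 30.8 CPM in random wells, a difference of -0.92, with 15 of 16 time-lapse plates below all random plates. The target HPC plates, at 15.2 to 26.4 CPM, also lay below all random plates, without time-lapse imaging. Insl3, often fractional in the same wells as Jak3, had 8.24 CPM in time-lapse and 19.7 CPM in random wells. Its part in the Jak3 values was not tested. Socs2 had 285.7 CPM in time-lapse wells, with plates at 78.7 CPM (lowest), 237.4 (median) and 617.8 (highest), and 367.1 CPM in random wells, with plates from 325.1 to 429.3. The time-lapse plates thus lay on both sides of the random plates, 10 below all of them and 3 above. Il2rg had 61.2 CPM in time-lapse and 85.4 CPM in random wells. Socs1 (3.10 and 4.63 CPM), Socs3 (5.53 and 9.55 CPM), Il2ra (0.443 and 4.34 CPM) and Il2rb (0.443 and 0.579 CPM) stayed under the minimum.

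**Figure D3:**
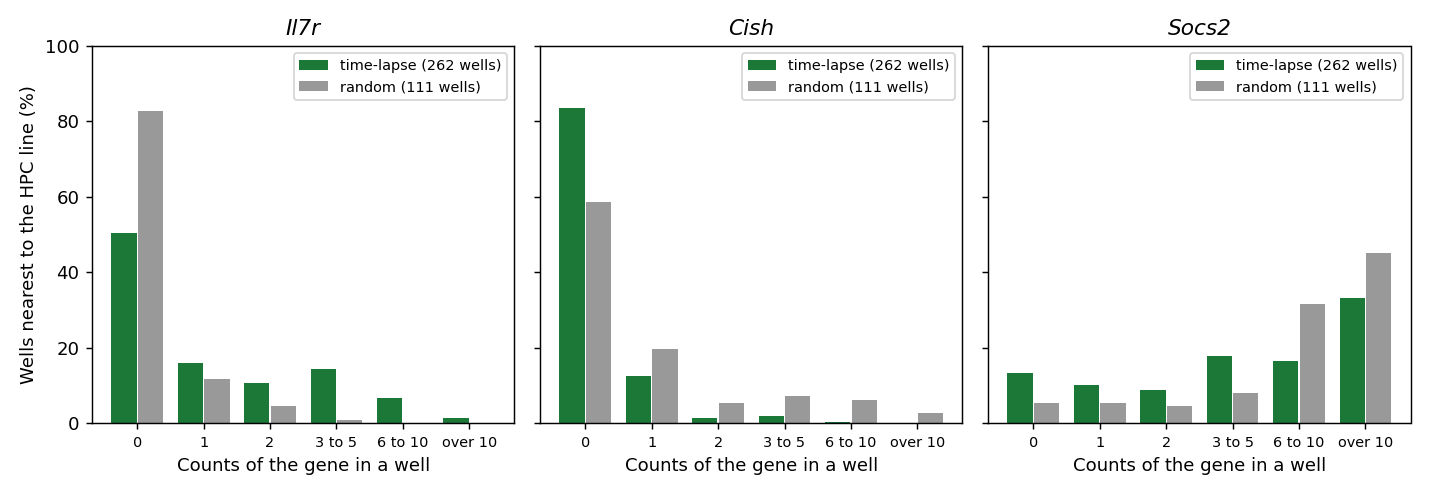
Share of HPC-class wells (percent) by the number of counts of Il7r, Cish and Socs2 in the well, for time-lapse and random wells. Il7r is at 0 in 50.4% of time-lapse wells and 82.9% of random wells, and Cish is at 0 in 83.6% of time-lapse wells and 58.6% of random wells.

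Within the HPC wells the 2 genes that moved in opposite directions were not mutually exclusive. In time-lapse wells Cish was found in 26 of 130 wells with Il7r (20%) and in 17 wells without it (12.9%), where wells with Il7r were deeper (median 38774 counts against 29052). In random wells Il7r was found in 12 of 46 wells with Cish and 7 of 65 wells without it. Socs1 was found in 9 of 43 time-lapse HPC wells with Cish (20.9%) and in 9 wells without it (4.11%), at median depths of 36721 and 33122 counts. The gap was smaller in random HPC wells, with Socs1 in 7 of 46 wells with Cish (15.2%) and 5 of 65 without it (7.69%). Target HPC wells hardly differed, with 1 of 22 (4.55%) and 2 of 51 (3.92%).

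Other markers also moved between time-lapse and random HPC wells. The 11 monocyte and macrophage markers summed to 775.1 CPM in time-lapse wells (plates 575.6 to 1100.03) and 1518.8 CPM in random wells (plates 1439.1 to 1634), with none at 0 in either. Target HPC wells, without time-lapse imaging, summed to 984.8 CPM (plates 716.4 to 1163.05), also below every random plate. The 11 progenitor markers summed to 2284 CPM in time-lapse wells (1544 to 3031) and 2184 CPM in random wells (2080 to 2415), with Gata2 at 0 in both. The 14 T cell markers summed to 165.97 CPM in time-lapse wells (64.2 to 255.6), with Thy1, Cd4 and Cd8a at 0, and 92.3 CPM in random wells (80.04 to 104.6), with Cd247 and Cd8a at 0, and 1 of the 14 reached 10 CPM in either. Cd34 had 306.3 CPM in time-lapse and 411.5 CPM in random wells, and Flt3 had 115.6 and 130.4 CPM. The part of these markers in the Il7r, Il4ra and Cish results was not tested.

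Among the Stat5 targets in HPC wells, 1 of 12 tested was higher and 7 were lower in time-lapse wells, beside 4.4% and 8.42% of all genes tested, with a median difference of -1.43 where all genes tested had -0.08. Myc, a growth regulator, had 15.8 CPM in time-lapse and 92.2 CPM in random wells, and Ccnd2, a cyclin of early cell cycle, had 109.8 and 402.995 CPM. Bcl2 had 60.6 CPM in time-lapse and 201.5 CPM in random wells, and Pim1 had 52.6 and 145.4 CPM. Bcl6 was the target called higher, at 47.6 CPM in time-lapse and 6.80 CPM in random wells. Whether Stat5 activity differed between these wells was not tested. Of the remaining lists, 0 of 14 other receptors were called (median 0.39), Il21r was the 1 of 2 gamma chain family genes called lower, 1 of 9 JAK and STAT genes was called lower, and Socs4 was the 1 of 15 negative regulators called higher.

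In T-class wells the members tested were not called, but several low genes appeared. Il2rg had plates from 76.7 to 135.5 CPM (median 106.4) in time-lapse wells, and 187.9, 169.9, 178.9 and 221.9 CPM in random wells. Every time-lapse plate lay below every random plate, but the mean difference, -0.81, was under 2-fold, and the pooled level was 1.72-fold lower in time-lapse wells (1.60 to 1.85). Il4ra had 6.38 CPM in time-lapse wells (25.9% of wells) and 0 in random wells (no well, where 3 counts in the group would be 2.52% of wells with a count), at least 12.1-fold higher. On 13 of 16 time-lapse plates it lay above all random plates, and at equal depth the time-lapse share was 11.6%. Il2rb, the chain that carries most of the interleukin-2 and interleukin-15 signal, had 2.32 CPM in time-lapse wells (10.4% of wells) and 0 in random wells, at least 4.402-fold higher. Socs2 had 9.41 CPM in time-lapse wells (34.7% of wells) and 2.02 CPM in random wells (8.40%), a ratio of 4.66 (2.50 to 8.82). Time-lapse T wells were deeper than random T wells (medians of 58932 and 44508 counts), and the Il2rb and Socs2 shares given here are not at equal depth. These 3 genes stayed under 10 CPM, so no call was made.

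The time-lapse T wells differed from random T wells in their T cell markers too. The list of 14 summed to 1803 CPM in time-lapse wells (plates 1500 to 2199) and 2517 CPM in random wells (2413 to 2655). Thy1 was at 5.82 CPM in time-lapse wells, with a count in 15.1% of wells, and at 661.4 CPM in random wells, with a count in all but 1. Bcl11b was at 388.2 CPM in time-lapse and 321.1 CPM in random wells. The 11 progenitor markers summed to 321.2 CPM in time-lapse T wells (plates 246.7 to 492.4), with 2 at 10 CPM or more and Kit, Gata2 and Mpo at 0, and to 157.6 CPM in random T wells (141.98 to 175.9), with 1 at 10 CPM or more, so that the plates did not overlap. Of these, Cd34 (0.953 CPM), Flt3 (0.206 CPM) and Spi1 (1.21 CPM) were near 0 in time-lapse T wells, as were the leukemia line's Cd160 (2.03 CPM), Cacna2d2 (5.64 CPM) and Cmah (3.55 CPM), which stood at 378.1, 299.96 and 439.8 CPM in leukemia target wells. With Thy1 absent from most wells, these cells are called here by their class only, and the part of these markers in the values above was not tested. Of the lists, Stat5 targets had 5 of 12 higher and 2 lower, beside 9.39% and 10.2% of all genes tested, among them Myc (186.8 CPM in time-lapse and 64.1 CPM in random wells) and Bcl2 (2.16 and 10.4 CPM). The negative regulators had 4 of 15 higher and 2 lower, led by Ptpn6 (19.6 CPM in time-lapse and 1.40 CPM in random wells). Crlf2 was the 1 of 2 gamma chain family genes called lower (0.258 and 12.9 CPM), Il6ra and Il27ra the 2 of 7 receptors called lower, and Stat2 the 1 of 8 JAK and STAT genes called higher.

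In leukemia-class wells Il2rg had 81.3 CPM in time-lapse and 103.8 CPM in random wells (difference -0.39), Il4ra 18.2 and 31.1 CPM (-0.88) and Socs1 16.01 and 22.9 CPM (-0.54). The time-lapse plates of Il4ra ran from 8.99 to 37.1 CPM and overlapped the random plates at 24.2 to 43.5 CPM, with 13 of 16 below all of them. The pooled level was 1.71-fold lower in time-lapse wells (1.37 to 2.13). Socs2 came from 12 time-lapse wells (2.80%) and 1 of 100 random wells, and Cish from 1 and 0 wells. In all 5 pathway lists 0 genes were called in this class.

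Over all classes together, Il7r had 9.41 CPM in the time-lapse wells and 2.26 CPM in the random wells, and Cish had 1.66 and 12.3 CPM. Il2rg had 90.4 and 138.5 CPM, Il4ra 16.9 and 35.02 CPM, Socs2 61.8 and 99.9 CPM, Socs1 10.97 and 11.2 CPM, Jak3 9.87 and 15.2 CPM, and Socs3 1.69 and 3.04 CPM, in time-lapse and random wells in that order. These totals also carry the share of HPC wells, 25.99% and 33.6%.

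FACS wells were used by class, since their profiles did not follow their labels, and served as a check from separate plates. Among 52 HPC-class wells, Cish had 66.3 CPM and was counted in 28, and Socs2 had 426.6 CPM and was counted in 51. Socs1 had 14.8 CPM there, above the 1.19 CPM of target HPC wells. Il4ra had 80.3 CPM in HPC, 0 CPM in T and 35.9 CPM in leukemia-class wells, the same order as on the target plates.

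In the blood, Il7r was the member found in the most wells. Median expected counts per PBMC well were 2147, far below the lines, so shares are lower bounds on the cells that carry an RNA. Wells were clustered without the 10 members and named from marker lists: 190 T cell-like wells in 2 clusters, 86 B cell-like wells in 2 clusters, 35 NK cell-like wells and 28 unnamed wells, in which Rn45s took 43.9% of counts. The larger group of T cell-like wells was led by Actn1, Gm14085 and Tdrp. It is called the Lef1 cluster here, after a gene lower among its leading genes, where Cd8b1 also stood. The other 63 wells, called the Cxcr6 cluster, were led by Cxcr6, Fam129a and Rora, with Zbtb16 and Gata3 lower among the leading genes. The NK cell-like wells also carried monocyte and macrophage markers at 3166 CPM, all 11 at 10 CPM or more, and neutrophil markers at 5515 CPM, all 5 at 10 CPM or more, beside 4061 CPM of NK cell markers. On the 5 plates with at least 5 of these wells the neutrophil markers were at 0. The part of other cells in their values was not tested.

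Over all wells Il7r had 608.3 CPM, with plates at 251.04 (lowest), 662.1 (median) and 972.04 (highest), and a count in 43.1% of wells. It was counted in 85.04% of wells of the Lef1 cluster (77.6 to 90.7), at 1208.6 CPM, and in 26 of 63 wells of the Cxcr6 cluster (41.3%, 29.01 to 54.4), at 433.4 CPM. Only 2 of 86 B cell-like wells and 1 of 35 NK cell-like wells held a count, at median depths of 1872 and 1880 counts, where the Lef1 cluster had 2213. The Il7r share therefore differed between types of similar depth, and thinned to 1500 counts it was 77.6% in the Lef1 cluster, 37.7% in the Cxcr6 cluster and 1.64% in B cell-like wells. Within the Lef1 cluster, Cd8b1 was found in 29 wells with Il7r (26.9%) and 1 of 19 without it.

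The chains of the interleukin-2 receptor had another distribution. Il2rg had 216.6 CPM over all wells and was counted in 35 of 63 wells of the Cxcr6 cluster (55.6%, 416.5 CPM), 38 wells of the Lef1 cluster (29.9%, 148.2 CPM), 27 of 86 B cell-like wells (179.7 CPM) and 7 of 35 NK cell-like wells (104.2 CPM). Il2rb was found in 13 of 35 NK cell-like wells (37.1%, 21.5 to 55.1) at 221.4 CPM, with 156.4 to 419.4 CPM on the 5 plates without neutrophil markers, in 14 of 63 wells of the Cxcr6 cluster (22.2%) at 95.7 CPM and in 5 wells of the Lef1 cluster (3.94%) at 16.5 CPM. It had no count in 86 B cell-like wells, where 3 counts would be 3.49% of wells with a count. Il2ra, the chain of regulatory and activated T cells, was found in 12 of 63 wells of the Cxcr6 cluster (19.05%, 10.2 to 30.9) and in 1 well of the Lef1 cluster (0.787%). Foxp3, the regulatory T cell factor, had no count in the 13 T cell-like wells with Il2ra and was found in 1 of those without it, so that Il2ra and Foxp3 were not seen together at this depth.

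Il4ra was found in 12 of 86 B cell-like wells (81.2 CPM), 12 wells of the Lef1 cluster (9.45%, 42.8 CPM), 2 of 63 of the Cxcr6 cluster and 0 of 35 NK cell-like wells, where 3 counts would be 8.57%. Cish was counted in 6 wells, all in the Cxcr6 cluster (6 of 63, 9.52%, 3.58 to 19.6), against none in the Lef1 cluster, where 3 counts would be 2.36%. These limits are on wells with a count and not on cells that carry the RNA. Socs2 was counted in 8 wells, 5 of the Cxcr6 cluster and 3 of the Lef1 cluster. Socs1 (18 wells), Socs3 (9 wells) and Jak3 (7 wells) were too sparse to order the clusters.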

How the data were processed

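RNA was measured in single wells of 3 mixed mouse cell lines and of PBMC. The authors deposited expected counts of barcoded molecules for every gene and well, without scaling. The submitters' processing notes name bcl2fastq, STAR and the build mm10. Versions, counter, annotation and well filters were not given in the sources used here. Primers with a run of T bases read RNA from its tail, and RNA sharing its sequence with another gene can be split into fractions.

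Here counts were summed per plate and group and scaled to a sum of 1000000 (CPM). Differences are in log2 after adding 1 CPM, on plates with at least 5 wells of the group. A group at 0 was set to a floor of 3 counts, and a share of 0 has the share that 3 counts would give as its limit. Other shares have exact Clopper-Pearson 95% intervals, and intervals and floors cover counting error only. Each sample is 1 cell with no animal or culture named, so no test was run. The call rule was tried only on simulated counts drawn from the gene means of leukemia target wells, without plate effects, with well expressed genes changed. That trial does not cover low genes or differences between plates. No doublets were removed, and no wells were identical in either table.

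The kind of picking and the line of target wells came from the labels. Time-lapse, random and FACS wells were given a line by profile class. Clusters used scanpy 1.11.5 and igraph 0.11.9 (2000 variable genes, 30 principal components, 15 neighbours, Leiden resolution 0.3 for lines and 1 for PBMC). A PBMC cluster took the type with the most markers, at least 3, each in 20% of its wells and 1.5 times as often as elsewhere. PBMC wells under 300 genes (7) were left out. Scripts ran in python 3.11.15 with scipy 1.17.1, pandas 2.3.3, matplotlib 3.10.9 and numpy 2.4.6.

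All 10 members were named in the comparisons, up to 6 called genes per pathway list, and the 3 genes most like each member of at least 50 CPM. The members and lists were chosen with earlier results of these data known. Values of some genes on the pathway lists are not reported here.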

Additional observations from a re-analysis of the deposited data

Results flagged for a closer look

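Of 29 groups of plates that could be checked for a value far from the others, 1 stood out. Jak3 in random HPC wells had 28.02 CPM on plate 2, the lowest of 4 plates, where the nearest plate had 31.9 CPM. The gap was small in CPM, and about 1 in 20 groups shows such a gap by chance.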

How the results depend on the processing

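Of the alternatives to the counts of called members, 56 gave a count within 1.5 times of that reported and 3 did not, and none reversed a direction. Of the differences of single members, 5.76% moved by more than the spread between plates, under 10 CPM added before the log, or FACS or random wells by class. Of the shares of wells, 26.5% left their interval, all of them when wells were thinned to a fixed total. With 10 CPM added before the log, Jak3 had 0.72 in HPC against leukemia wells, and 1 member was lower in T than in leukemia wells (Il4ra, without Socs1 at -0.85). With FACS wells by class in place of target wells, 3 members were higher in HPC than in leukemia wells (Il4ra, Socs2 and Cish), Jak3 had 0.99, and Socs1 at -0.90 was no longer called lower. With no expression minimum, 1 member was called in time-lapse T wells (Il2rb, 1.496). Leaving out each plate in turn gave 2 to 3 called members for T against leukemia, 4 to 6 for HPC against leukemia, 3 to 4 for HPC against T, 3 to 3 for the time-lapse HPC class (random plates left out) and 0 to 0 for the T and leukemia classes. Naming classes by cluster was not run for the T class, which has no labelled well in its time-lapse cluster. Depth limits the low genes: at about 2147 counts a PBMC well, 1 count is a large share, and most members are seen in few wells. No paired analysis was possible because time-lapse and random wells share no plate. On the target plates the reported differences are already taken within each plate, with no test.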

Other observations

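Socs2 in time-lapse wells outside the HPC class came from few wells with many counts as well as from many with few. In the leukemia class 12 wells held 57.8 counts in all, and the highest held 21. In the T class 110 wells (34.7%) held a count, and the highest held 30.

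With the 10 members kept in the PBMC clustering, 10 wells led by Scgb1a1, Sftpc and Scgb3a2, genes known from lung epithelium, formed a cluster apart from the T cell-like wells. The clustering used for the shares above had no such cluster, so these wells lie within the groups reported there. Between the clusterings the Lef1 cluster had the largest drop in wells. The part of these wells in the reported shares was not tested.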
